A study of Mus musculus with 8 samples.

Results

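Membrane antiviral restriction factors are interferon-induced proteins that hold viruses back where they cross, remodel or leave cellular membranes. The 9 genes described here, Ifitm1, Ifitm2, Ifitm3, Bst2, Rsad2, Mx1, Mx2, Ch25h and Samd9l, were taken by symbol from a count table of 55367 genes. The rule itself uses no measured value, but the list was drawn up with earlier results of these data known. Of the 9 genes, 7 had enough counts to be tested, and Ifitm1 and Ch25h did not. The cells were Neuro2a, an established mouse neuroblastoma line, transfected for CRISPR activation (CRISPRa) in a study of the sodium channel gene Scn2a. The CRISPRa group received 750 ng of a single guide RNA (sgRNA), its form not stated, and 750 ng of plasmid for sadCas9-VP64. The latter is a cleavage-dead Cas9 joined to a transcriptional activator. The no sgRNA group received sadCas9-VP64 alone, in an amount that the labels do not give separately. Both groups therefore carried the activator, and the effect of the guide and that of the added nucleic acid cannot be told apart. The labels list 4 samples in each group, and counts were analysed for 3 of each. The CRISPRa libraries are those numbered 2, 3 and 5 and the controls those numbered 2, 3 and 4. The other CRISPRa library, number 1, and the other control, number 5, are not analysed here. The labels do not say whether replicates were separate cultures, so p-values measure only the spread between these libraries, which may be technical. They also give no guide sequence, no time of harvest and no share of transfected cells.

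Interferon receptors signal through the kinases JAK1 and TYK2 to transcription factor complexes, one of which contains IRF9. That complex binds interferon-stimulated response elements (ISRE) in promoters of antiviral genes, while gamma-activated sequences (GAS) are a further promoter motif of interferon responses. The products of the 9 genes act at different steps of a viral cycle. IFITM proteins sit in the plasma membrane and endosomes and block fusion of incoming enveloped viruses, and CH25H makes 25-hydroxycholesterol, a soluble oxysterol that alters membranes and also hinders fusion. BST2, or tetherin, holds budding virions on the cell surface. Viperin, the product of Rsad2, is a radical SAM enzyme on the endoplasmic reticulum and lipid droplets that makes a chain-terminating nucleotide. MX proteins are dynamin-like GTPases that trap viral nucleocapsids, and SAMD9L restricts poxviruses and is found with endosomes. Neurons generally keep such genes low until interferon signalling is engaged.

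The libraries held 29739422 to 34248514 counts assigned to genes. A count of 0 therefore allowed a level of up to 0.0876 to 0.101 on the counts-per-million (CPM) scale, for counting error only. Scn2a, the gene named in the study's title, had a mean level of 7.81 ± 0.714 CPM in the CRISPRa libraries, compared with 5.61 ± 1.31 CPM in the controls (SD, n = 3 each), a log2 difference of 0.48 (SE 0.19) that did not pass the test (edgeR, adjusted p = 0.0899). Of 15 neuroblast markers, 13 were tested and their list summed to 2770 to 3038 CPM with CRISPRa and 2911 to 3124 CPM without sgRNA. Nefl and Nefm, the neurofilament genes of that list, were at or near 0 in every library. In that list 3 genes were called higher, Chga the most (log2 0.33), and 2 lower, Phox2a the most (log2 -0.69), while Chgb, the most abundant gene not called, stood at 655 ± 29.3 against 610 ± 12.9 CPM. The 3 became 1 when CRISPRa or no sgRNA replicate 2 or 3 was left out. The 10 macrophage and microglia markers summed to 1.42 to 2.00 CPM with CRISPRa and 0.790 to 1.85 CPM without sgRNA, with Itgam, Adgre1, C1qa, C1qb and C1qc at 0 throughout. Cd68, the only one of them tested, stood at 1.25 ± 0.228 against 1.00 ± 0.479 CPM and was not called. The 7 fibroblast markers summed to 121 to 125 against 110 to 124 CPM. Of the 5 tested, 2 were called lower, Col1a2 the most (log2 -0.88), and Pdgfrb was called higher (log2 0.25), a call lost without any 1 of the CRISPRa libraries or without no sgRNA replicate 3 or 4. Dcn was not called, at 0.881 ± 0.348 against 1.25 ± 0.273 CPM. The 6 endothelial markers summed to 23.7 to 28.2 against 29.1 to 32.1 CPM. Of the 4 tested, Cdh5 was called higher, from 0.408 ± 0.281 to 1.70 ± 0.369 CPM (log2 2.04, edgeR, adjusted p = 0.0105). As a group, the controls fell short of the filter on low counts for Cdh5, so its call carries no weight. Vwf was not called, at 16.2 ± 0.791 against 19.4 ± 3.49 CPM (SD, n = 3, for each marker). The part of these lists in the results below was not tested.

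Promoters are shown to describe the interferon motifs near the start sites of the members. Whether these motifs go with the response was not tested. A promoter entry was found for 7 of the 9 genes in RefSeq (GRCm38.p6). Mx1 and Mx2 were not among them, and the windows of Ifitm1 and Ch25h, which were too low to test, are not printed. The letters searched on both strands were TTTCNNTTTC, which reads GAAANNGAAA on the other strand, for the ISRE core, and TTCNNNGAA for GAS. Matches may overlap. The windows below run from 150 bases before the start site to 30 bases into the transcript, on the minus strand in all 5 cases, and capitals mark ISRE cores. They cover chr7:140955932-140956111 for Ifitm2, chr7:141010715-141010894 for Ifitm3, chr8:71537443-71537622 for Bst2, chr12:26456423-26456602 for Rsad2 and chr6:3399542-3399721 for Samd9l.
Ifitm2: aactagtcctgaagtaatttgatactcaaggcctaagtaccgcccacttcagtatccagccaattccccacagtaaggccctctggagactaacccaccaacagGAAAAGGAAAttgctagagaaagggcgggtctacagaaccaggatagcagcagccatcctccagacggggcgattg
Ifitm3: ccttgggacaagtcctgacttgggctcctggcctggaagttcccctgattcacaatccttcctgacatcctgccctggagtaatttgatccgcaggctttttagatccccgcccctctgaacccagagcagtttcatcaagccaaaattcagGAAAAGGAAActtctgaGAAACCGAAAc
Bst2: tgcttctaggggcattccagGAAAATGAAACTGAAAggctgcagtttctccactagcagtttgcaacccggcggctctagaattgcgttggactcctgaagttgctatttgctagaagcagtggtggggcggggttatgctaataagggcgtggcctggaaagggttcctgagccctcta
Rsad2: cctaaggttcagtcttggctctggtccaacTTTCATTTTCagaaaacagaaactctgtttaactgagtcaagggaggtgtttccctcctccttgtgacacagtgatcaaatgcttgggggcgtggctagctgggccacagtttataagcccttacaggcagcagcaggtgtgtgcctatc
Samd9l: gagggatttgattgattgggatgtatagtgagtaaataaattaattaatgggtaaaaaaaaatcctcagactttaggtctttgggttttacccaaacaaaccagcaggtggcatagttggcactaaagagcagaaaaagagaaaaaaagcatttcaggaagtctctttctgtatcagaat

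In the full 300-base windows, which hold 250 bases before the start site and 50 bases from it on, an ISRE core was found in Ifitm2, Ifitm3, Bst2 and Rsad2, that is in 4 of the 7 promoters. Over all 32851 promoters of the same length, 3.44% held this core. Ifitm3 had 2 cores just inside its transcript, at bases 3 to 12 and 20 to 29 counted from the start site as base 1, and Bst2 had a pair that overlapped, at -130 to -121 and -124 to -115. The core of Ifitm2 at -46 to -37 read GAAAAGGAAA, the same letters as the upstream core of Ifitm3. Rsad2 carried its core in the other orientation at -120 to -111. GAS letters were found in Ifitm3 at 14 to 22 and in Bst2 at -136 to -128, against 8.30% of all promoters. The windows of Ifitm1, Ch25h and Samd9l held neither set of letters, which says only that the letters are absent from these 300 bases. A match describes sequence and does not show that a factor was bound.

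**Figure D1:**
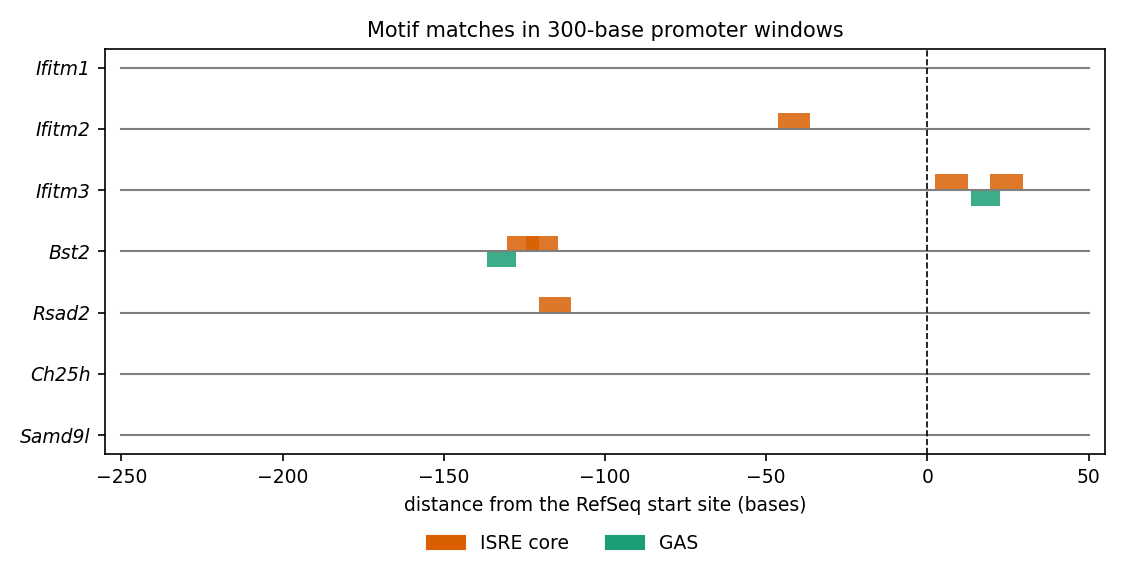
Positions of ISRE core (orange) and GAS (green) letters in the 300-base promoter windows of the 7 genes with a RefSeq entry, by distance in bases from the start site (dashed line). Cores lie upstream in Ifitm2, Bst2 and Rsad2 and inside the transcript in Ifitm3, and the lines of Ifitm1, Ch25h and Samd9l are empty.

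With CRISPRa, 6 of the 9 genes rose: Ifitm3, Bst2, Rsad2, Mx1, Mx2 and Samd9l. Ifitm2 did not pass the test, and Ifitm1 and Ch25h were too low to test. No member was called lower by edgeR, DESeq2 or limma-voom, and 1 member, Ifitm2, was lower at an unadjusted p under 0.05 in edgeR. Over all 15117 genes tested, 9.47% were called higher and 9.25% lower at an adjusted p under 0.05. The median log2 difference was 3.25 over the 7 tested members and -0.01 over all tested genes. Samd9l passed the filter on low counts through the CRISPRa group alone. Its call therefore carries no weight in the count of 6, nor does its lack of overlap among the 7. The 7 tested members and their median are not a neutral sample of the 9. The groups did not overlap in any of the 7, as in 36.4% of all tested genes. Together the 9 genes took 0.121% ± 0.0123 (SD, n = 3) of counts with CRISPRa and 0.0208% ± 0.000571 (SD, n = 3) without sgRNA. In bulk RNA, more cells with a transcript and more transcript per cell cannot be told apart.

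**Figure D2:**
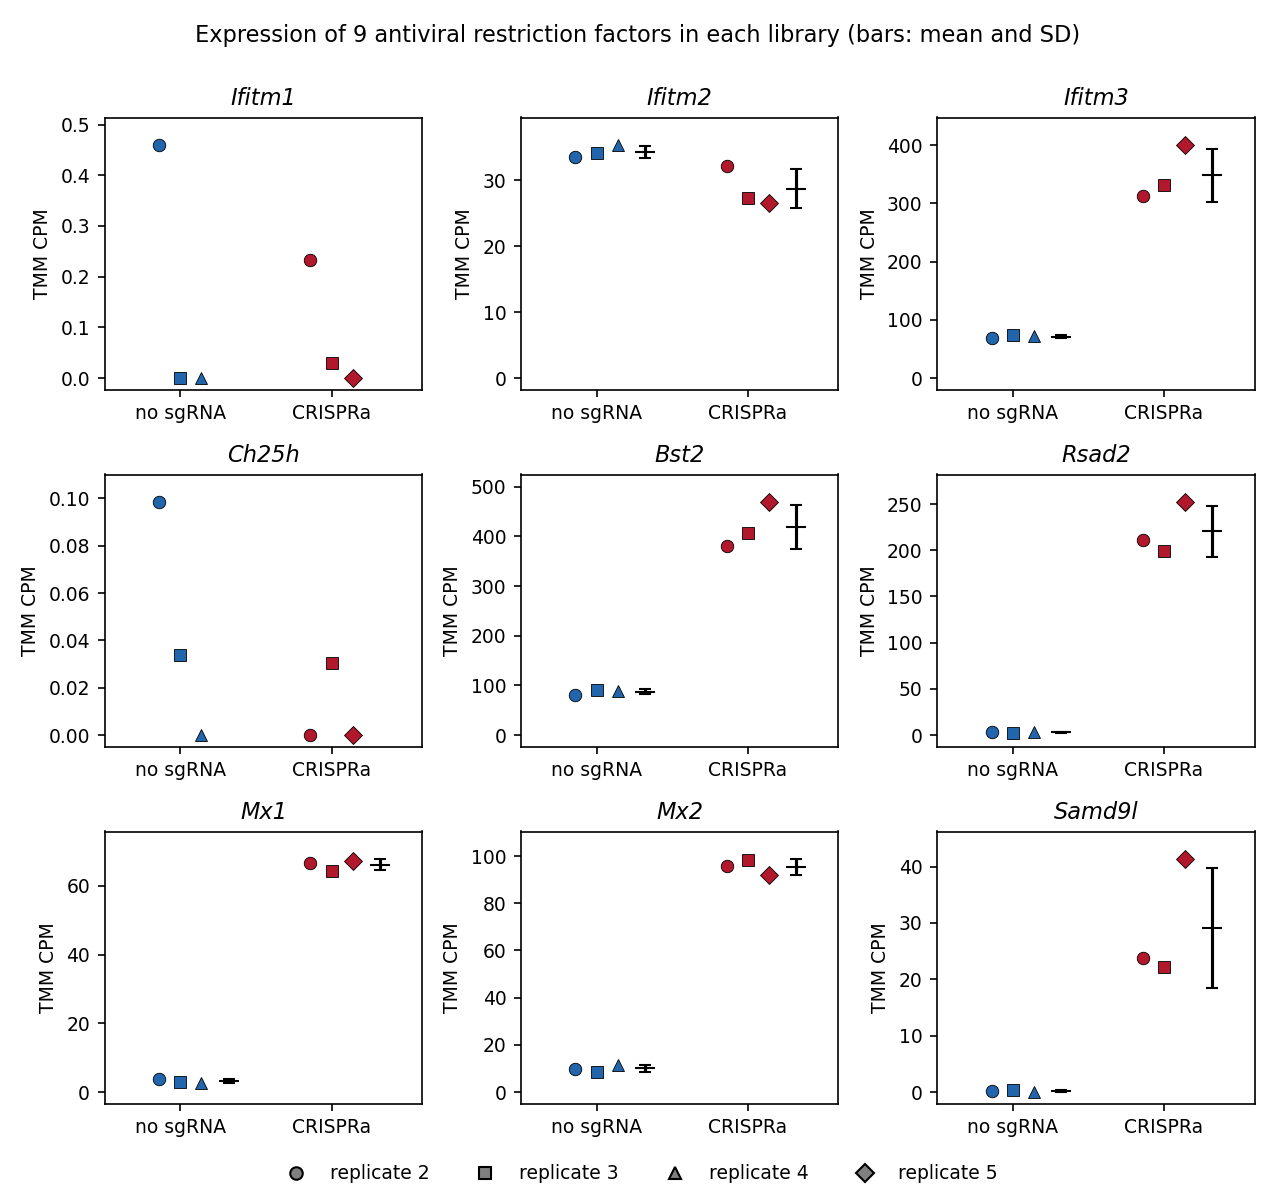
CPM of the 9 genes in each of the 6 libraries, 1 panel per gene, with the mean and SD of 3 libraries per group as bars for the 7 tested genes. Groups stand apart in the tested panels, with CRISPRa above in all of them except Ifitm2, where it is below.

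Of the 4 genes that act on virus entry, 2 had enough counts to be tested, and 1 of these, Ifitm3, rose. Ifitm3, the best characterised of the endosomal IFITM proteins and a barrier to influenza virus, lies on chromosome 7 at 141009586 to 141010770, minus strand, with 2 exons (GRCm38). It stood at 312, 331 and 399 CPM with CRISPRa (replicates 2, 3 and 5, here and below in this order) and at 68.3, 73.4 and 71.6 CPM in the controls (replicates 2, 3 and 4). The control libraries were tightly grouped, and every CRISPRa library was above them. The rise was 4.89-fold (95% interval 4.30 to 5.56; log2 2.29, SE 0.09; edgeR, adjusted p = 2.97e-11). Its transcripts share 10.0% of their 50-base words with other genes, Gm7676 among them, and reads from such words could be assigned to either.

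Ifitm2, the neighbouring paralog with a similar endosomal location, lies at 140954837 to 140955987 on the same strand. Its levels were 32.1, 27.4 and 26.6 CPM with CRISPRa and 33.6, 34.1 and 35.3 CPM without sgRNA. All 3 CRISPRa libraries were lower, replicate 2 least so. The difference, 0.836-fold (95% interval 0.728 to 0.960; log2 -0.26, SE 0.09), did not pass the test over all genes (edgeR, adjusted p = 0.0688). Without CRISPRa replicate 2 the log2 difference was -0.34 and passed (adjusted p = 0.0393), and over all alternatives adjusted p ran from 0.0393 to 0.227. The annotated Ifitm2 exons overlap Gm45717 on the same strand over 40.9% of their bases, and 48.5% of the 50-base words of Ifitm2 transcripts occur in other genes, the highest share of the 9, so its counts are uncertain in that respect. Gm45717 itself had a count of 0 in every library.

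Ifitm1, the paralog found mainly at the plasma membrane, lies at 140967221 to 140969825 on the plus strand. It had 8, 1 and 0 counts with CRISPRa and 14, 0 and 0 without sgRNA. In each group replicate 2 held nearly all of them, and no fold or test is given. Ch25h, a single-exon gene at 34473778 to 34475164 on chromosome 19, had 0, 1 and 0 counts with CRISPRa and 3, 1 and 0 without sgRNA. Both groups were at or under the limit that a count of 0 allows, so a difference was not detectable at this depth.

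Because Ifitm2 and Ifitm3 are close relatives, their ratio was taken within each library, as counts per exon base. Ifitm2 stood at 0.106, 0.0856 and 0.0690 of Ifitm3 with CRISPRa and at 0.509, 0.481 and 0.510 of it without sgRNA. The groups were far apart, and the geometric mean of the ratio was 5.84-fold lower with CRISPRa (difference of mean log2 ratios -2.55). With 3 libraries a side the exact two-sided permutation test cannot go below 0.1, which it gave (p = 0.1, adjusted over 2 ratios 0.1). The same letters of the ISRE core, GAAAAGGAAA, stand in both promoters printed above. They lie upstream of the start site in Ifitm2 and inside the transcript in Ifitm3. The Ifitm3 window also held a further core and GAS letters, which the Ifitm2 window did not. The part of these letters in the ratio was not tested.

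Bst2, which tethers virions at the surface, rose by a fitted factor near that of Ifitm3. It lies on chromosome 8 at 71534255 to 71537456, minus strand, with 5 exon blocks. Its levels were 381, 407 and 468 CPM with CRISPRa and 81.2, 91.6 and 88.7 CPM without sgRNA. Every CRISPRa library lay far above the controls, with replicate 5 the highest, as for Ifitm3. The rise was 4.81-fold (95% interval 4.26 to 5.43; log2 2.27, SE 0.08; edgeR, adjusted p = 1.89e-11). Across the 6 libraries the centred log2 profiles of Ifitm3 and Bst2 were 0.0781 apart, the closest of the 21 pairs of tested members, and the next pair, Ifitm3 and Mx2, was 1.29 apart.

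Rsad2, which encodes viperin, went from a few CPM to a level that, per length and as counted, overlapped that of Ifitm2. The gene lies on chromosome 12 at 26442746 to 26456452, minus strand. It had 7258, 6514 and 8169 counts (211, 199 and 252 CPM) with CRISPRa and 92, 64 and 112 counts (3.02, 2.15 and 3.54 CPM) without sgRNA. Control counts were well above 0, and no control library came near a CRISPRa library. The rise was 75.7-fold (95% interval 61.5 to 93.0; log2 6.24, SE 0.14; edgeR, adjusted p = 8.58e-14).

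Both Mx genes rose, Mx1 by the larger fitted factor. Mx1, whose protein acts in the nucleus in mice, lies on chromosome 16 at 97447035 to 97462907, minus strand. It stood at 66.7, 64.4 and 67.4 CPM with CRISPRa and at 3.77, 2.86 and 2.65 CPM without sgRNA. The CRISPRa libraries agreed closely, and the rise was 21.4-fold (95% interval 17.9 to 25.5; log2 4.42, SE 0.12; edgeR, adjusted p = 6.12e-13). Mx2, whose protein is cytoplasmic, lies at 97535308 to 97560900 on the plus strand and is annotated as a polymorphic pseudogene in GENCODE M21. It stood at 95.7, 98.4 and 92.0 CPM with CRISPRa and at 9.87, 8.49 and 11.6 CPM without sgRNA. Here too the groups were clearly separate, with a rise of 9.53-fold (95% interval 8.17 to 11.1; log2 3.25, SE 0.10; edgeR, adjusted p = 3.79e-12). Many laboratory mouse strains carry Mx alleles that make no working protein, and RNA counts do not show which alleles these cells have.

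The ratio of Mx1 to Mx2, per exon base, was 0.665, 0.625 and 0.700 with CRISPRa and 0.365, 0.322 and 0.218 without sgRNA. It was higher in all 3 CRISPRa libraries, by 2.25-fold in the geometric mean (difference of mean log2 ratios 1.17; exact two-sided permutation p = 0.1, adjusted 0.1, the smallest this design allows). Only 3.91% of the 50-base words of Mx1 transcripts occur in other genes, and 4.38% of those of Mx2.

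**Figure D3:**
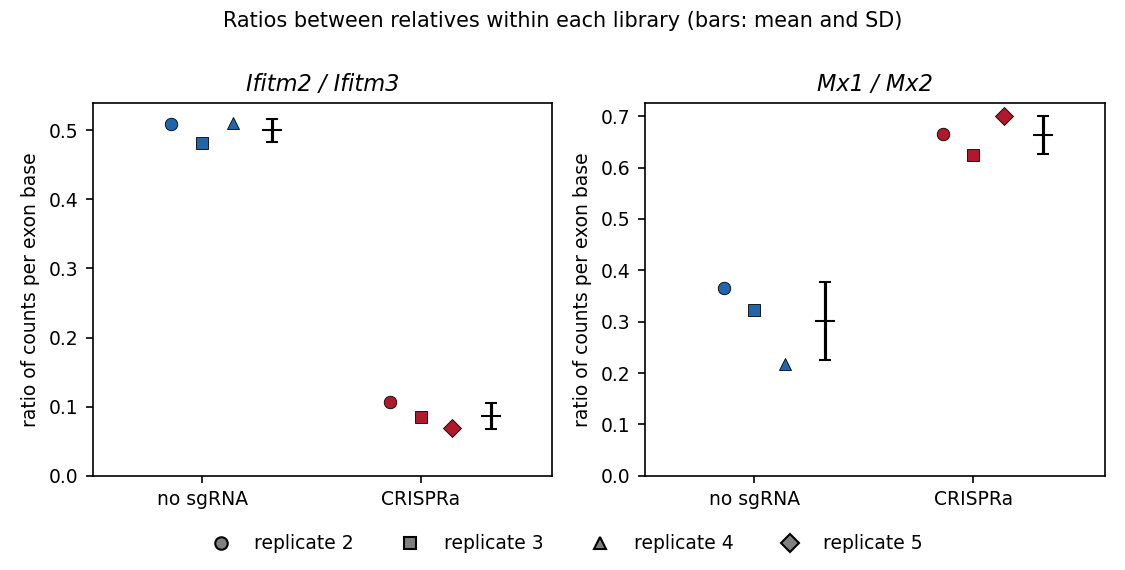
Ratio of counts per exon base between relatives in each library (points, shaped by replicate number) with the mean and SD of 3 libraries per group. The mean for Ifitm2 over Ifitm3 is 0.500 without sgRNA and 0.0870 with CRISPRa, and that for Mx1 over Mx2 is 0.302 and 0.663.

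Samd9l, a large cytoplasmic antiviral protein gene on chromosome 6 at 3372257 to 3399572, minus strand, was close to undetected in control cells. It had 822, 724 and 1339 counts (23.9, 22.2 and 41.3 CPM) with CRISPRa and 6, 12 and 0 counts (0.197, 0.404 and 0 CPM) without sgRNA. CRISPRa replicate 5 stood well above replicates 2 and 3, and no sgRNA replicate 4 had none. The fitted rise was 145-fold (95% interval 79.8 to 265; log2 7.18, SE 0.41; edgeR, adjusted p = 5.63e-09). Its size rests on few control counts: it was 289-fold without no sgRNA replicate 3, 96.0-fold without no sgRNA replicate 4 and 254-fold with limma-voom. On the 4 libraries with replicate numbers 2 and 3 alone it was 76.1-fold. It was called higher in every one of these fits, but it passed the filter on low counts through the CRISPRa group alone. The printed Samd9l window held none of the searched letters.

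Per transcript length, in transcripts-per-million units (TPM), Ifitm3 and Bst2 led in both groups. With CRISPRa, Ifitm3 stood at 1868 ± 249 TPM and Bst2 at 1690 ± 184 TPM (SD, n = 3), and the ranges over libraries overlapped. Rsad2 followed at 185 ± 23.5 TPM, overlapping Ifitm2 at 160 ± 16.3 TPM. Mx2 at 96.1 ± 3.12 TPM, Mx1 at 63.7 ± 1.57 TPM and Samd9l at 19.5 ± 7.14 TPM then stood apart from one another. Ifitm1 and Ch25h came last and overlapped. Without sgRNA, Ifitm3 (366 ± 13 TPM) and Bst2 (337 ± 17.8 TPM) overlapped again, and Ifitm2 stood next at 183 ± 1.05 TPM. All other members were far lower, Mx2 at 9.64 ± 1.30 TPM, Mx1 at 2.87 ± 0.629 TPM and Rsad2 at 2.33 ± 0.522 TPM, the latter 2 overlapping. Ifitm1, Samd9l and Ch25h were each under 1 TPM in the mean and overlapped. Rsad2 and Ifitm2, far apart without sgRNA, thus overlapped with CRISPRa as counted. The place of Ifitm2 in this order is uncertain, because 40.9% of its exon bases overlap Gm45717 on the same strand.

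The make-up of the members' counts shifted with this order. Ifitm3 and Bst2 together held 63.5% of the members' counts with CRISPRa and 75.7% without sgRNA. Ifitm2 went from 16.4% without sgRNA to 2.40% with CRISPRa. Rsad2, Mx1, Mx2 and Samd9l together went from 7.76% to 34.1%. Rsad2 alone held 18.3% of all members' counts with CRISPRa.

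The CRISPRa libraries varied among themselves to different extents for different members. The coefficient of variation over the 3 libraries was 2.38% for Mx1, near the 2.13% that counting alone gives, and 3.37% for Mx2. It was 13.1% for Ifitm3, 10.7% for Bst2, 12.5% for Rsad2 and 36.3% for Samd9l, against counting errors of 0.932%, 0.849%, 1.17% and 3.23%. CRISPRa replicate 5 exceeded the mean of replicates 2 and 3 by a log2 difference of 0.84 for Samd9l, 0.31 for Ifitm3, 0.30 for Rsad2 and 0.25 for Bst2. The same difference was 0.04 for Mx1, -0.08 for Mx2 and -0.16 for Ifitm2. Over all tested genes it ran from -0.73 at the 5th percentile to 0.54 at the 95th, so that only Samd9l lay outside. Among the 113 other genes called higher by at least 4-fold, 87 were above 0 on this measure. Their median was 0.23, against 0.0062 over all tested genes. Replicate 5 took part in choosing them, so their values on this measure are not independent of the choice. These 113 genes ran from -0.38 at the 5th percentile to 1.21 at the 95th, and Samd9l lay inside that range.

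Genes with the most similar profile over the 6 libraries were sought among 12851 genes with a mean of at least 1 CPM, the members themselves left out, by Euclidean distance of centred log2 CPM. For Ifitm3 and for Bst2 this was Lgals3bp, a secreted galectin-binding glycoprotein, at distances of 0.223 and 0.233. For Rsad2 it was Oasl2 (0.586), of the oligoadenylate synthetase family, and for Mx1 it was Irgm2 (0.274), an immunity-related GTPase. Samd9l was closest to Trim30a (1.04). Ifitm2 was closest to Gm16286 (0.0616), which went from 68.7 CPM without sgRNA to 57.2 CPM with CRISPRa. The mean profile of the tested members was closest to Trim12c (0.450), Ddx58 (0.476) and Dhx58 (0.485), the genes of RIG-I and LGP2, a pair of related cytosolic RNA helicases. These distances follow mainly the size of the difference between groups.

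Genes that work with the members, resemble them or lie in the interferon pathway were read from the same fit. Of 85 such genes in 9 lists, 59 were tested, 25 were called higher and none lower (3 lower at an unadjusted p under 0.05 in edgeR, and none called lower by DESeq2 or limma-voom). Their median log2 difference was 0.14. The 25 include Gbp2 and Gbp5, which passed the filter on low counts through the CRISPRa group alone and carry no weight in this count. The lists are described in turn beside the 9.47% of all genes called higher.

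Of 4 relatives of the IFITM genes outside the members, 2 were tested and 1 was called higher. Ifitm10 went from 4.81 ± 0.818 to 7.23 ± 0.871 CPM (SD, n = 3; log2 0.59, SE 0.18; edgeR, adjusted p = 0.0346). That call was lost when CRISPRa replicate 3 or 5, or no sgRNA replicate 2 or 4, was left out. Ifitm5, a bone-associated relative, was near 0.3 CPM in both groups. None of the 4 genes for proteins that modify or bind IFITM3 was called, with a median log2 difference of 0.04. Nedd4, the ubiquitin ligase that marks IFITM3 for turnover, stood at 284 ± 4.93 CPM with CRISPRa and 287 ± 10.9 CPM without sgRNA (SD, n = 3).

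Of 4 genes tied to viperin, 1 was called higher. Cmpk2, a mitochondrial nucleotide kinase whose gene neighbours Rsad2 and which supplies its kind of substrate, stood at 96.4, 96.3 and 97.7 CPM with CRISPRa and at 15.4, 16.0 and 15.2 CPM without sgRNA. The libraries of each group were nearly level. The rise was 6.24-fold (log2 2.64, SE 0.08; edgeR, adjusted p = 1.23e-12), against 75.7-fold for Rsad2. Hadhb, a subunit of the mitochondrial trifunctional protein that viperin can bind, stood at 50.8 ± 3.32 CPM with CRISPRa and 58.6 ± 1.46 CPM without sgRNA (SD, n = 3; log2 -0.21, SE 0.08; edgeR, adjusted p = 0.0747).

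Of 7 dynamin-family genes, which share the GTPase fold of MX proteins, 2 were called higher, both by little. Dnm1, the neuronal dynamin of synaptic vesicle recycling, went from 118 ± 6.76 to 145 ± 3.33 CPM (SD, n = 3; log2 0.29, SE 0.07; edgeR, adjusted p = 0.00592). Dnm1l, which divides mitochondria, stood at 199 ± 6.10 CPM with CRISPRa and 198 ± 9.67 CPM without sgRNA (SD, n = 3). The count of 2 fell to 1 without CRISPRa replicate 3 or 5 and without no sgRNA replicate 3 or 4. Of 12 genes that make, sense or dispose of oxysterols, the class of molecule that CH25H makes, 10 were tested and 2 were called higher. Soat2, a sterol esterifying enzyme, had a log2 difference of 0.43 (SE 0.14; edgeR, adjusted p = 0.0490). Neither oxysterol gene was called without CRISPRa replicate 5 or without no sgRNA replicate 4, and 1 was called without CRISPRa replicate 2 or no sgRNA replicate 2 or 3. Insig1, an oxysterol-binding brake on sterol synthesis, stood at 157 ± 17.4 CPM with CRISPRa and 161 ± 4.46 CPM without sgRNA (SD, n = 3).

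Of 11 other membrane-acting factors, 10 were tested and 5 were called higher, with a median log2 difference of 0.17. Gbp2 and Gbp5 among these passed the filter on low counts through the CRISPRa group alone, so their calls carry no weight in that count. Gbp2, a guanylate-binding protein that lowers processing of viral envelope proteins, had no count without sgRNA and 2.39 ± 0.366 CPM with CRISPRa (SD, n = 3), at least 24.6-fold higher against a floor of 3 counts per library. Ncoa7, whose short isoform acts on endosomes, stood at 46.8 ± 2.23 CPM with CRISPRa and 51.0 ± 3.24 CPM without sgRNA (SD, n = 3). Of 8 restriction factors that act away from membranes, 7 were called higher, with a median log2 difference of 1.03. Eif2ak2, the RNA-activated kinase PKR, rose 4.24-fold from 44.4 ± 1.29 to 188 ± 5.20 CPM (SD, n = 3; log2 2.08, SE 0.07; edgeR, adjusted p = 3.57e-12). Apobec3, a cytidine deaminase, had a log2 difference of 0.29 (SE 0.11) that did not pass (edgeR, adjusted p = 0.0955).

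Of 14 interferon signalling genes, 7 were called higher, among them Irf9, Irf1, Irf7, Usp18 and Socs1. Usp18, an interferon-induced brake on the receptor, went from 0.824 ± 0.361 to 118 ± 16.3 CPM (SD, n = 3; log2 7.17, SE 0.19; edgeR, adjusted p = 3.22e-13). Irf9 went from 23.3 ± 0.599 to 130 ± 5.19 CPM and Irf7, a transcription factor that amplifies interferon responses, from 2.05 ± 0.15 to 145 ± 22.8 CPM (SD, n = 3). The receptor and kinase genes of the list were not called, Jak1 standing at 120 ± 7.91 CPM with CRISPRa and 112 ± 5.66 CPM without sgRNA (SD, n = 3; log2 0.10, SE 0.07; edgeR, adjusted p = 0.343). None of the 21 interferon genes listed had enough counts to be tested, and 20 had no count in any library, which allows up to 0.0876 to 0.101 CPM in each. Ifnz had 0, 8 and 0 counts with CRISPRa and 2, 0 and 0 without sgRNA.

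**Figure D4:**
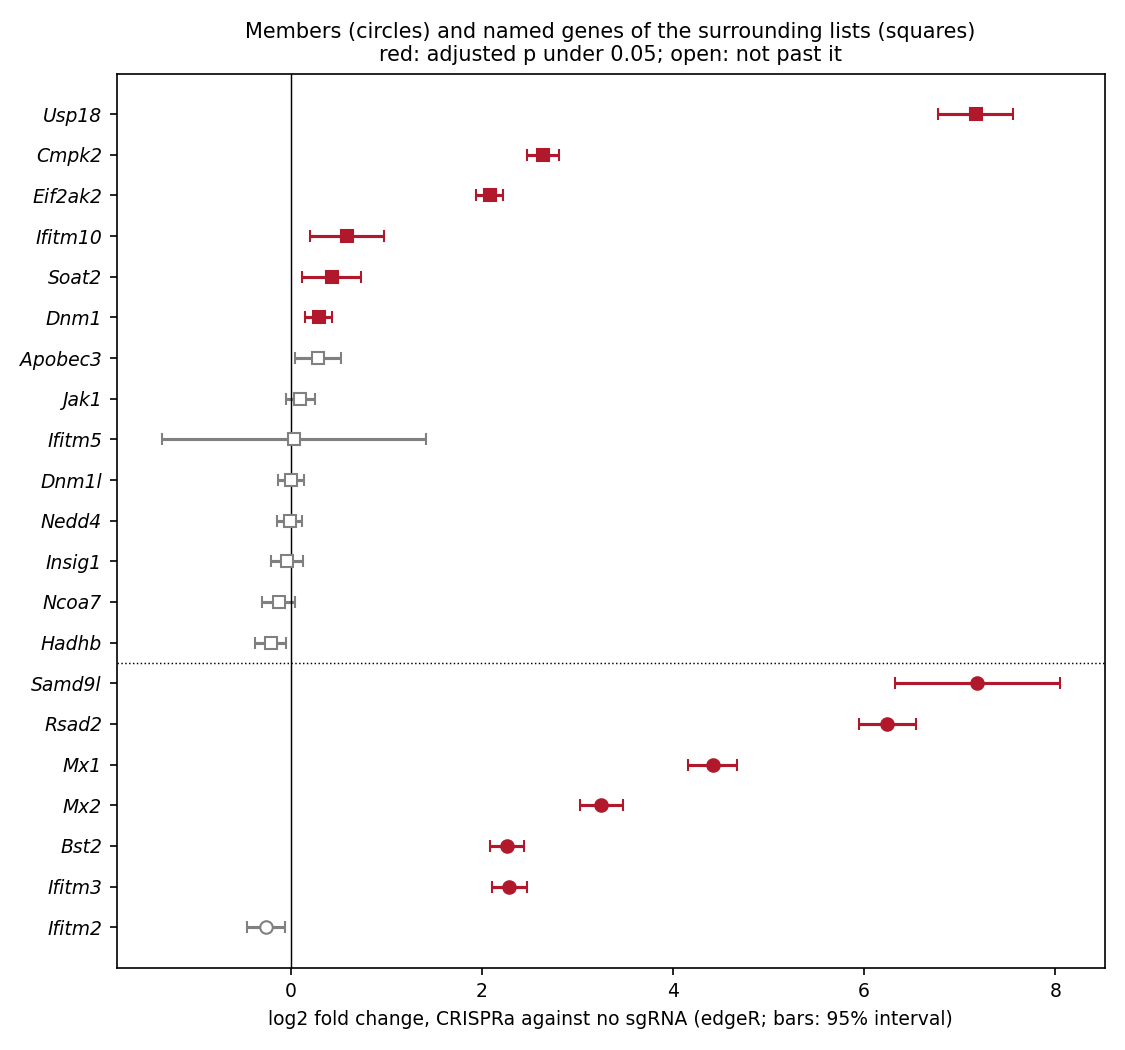
Log2 fold change of CRISPRa against no sgRNA with its 95% interval (edgeR) for the 7 tested members (circles) and for genes named from the surrounding lists (squares), red where the adjusted p was under 0.05. Members run from -0.26 for Ifitm2 to 7.18 for Samd9l, and among the squares Usp18, Cmpk2 and Eif2ak2 stand far from 0 while Nedd4, Dnm1l and Jak1 lie near it. Gbp2 is left out because it had no count without sgRNA.

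The authors' deposited table, which its name ties to 8 samples, lists 8 of the 9 members. It does not state its direction, which was read as CRISPRa over no sgRNA because Oasl2 is at 6.02 there. In the authors' deposited table the log2 fold change was 2.31 for Ifitm3, 2.28 for Bst2, 6.26 for Rsad2, 4.32 for Mx1, 3.34 for Mx2 and 6.78 for Samd9l. The authors' deposited table gives -0.17 (adjusted p = 0.171, DESeq2) for Ifitm2 and -0.18 with no adjusted p for Ifitm1. In the authors' deposited table Scn2a is at 0.62 (adjusted p = 0.00138, DESeq2), whereas it did not pass in the 6 libraries analysed here. The 2 sets of values share 6 samples and are not independent.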

How the data were processed

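Poly(A) RNA libraries were made from Neuro2a cells, per the labels' protocols. The deposited table holds raw counts per gene for 6 of 8 labelled samples, and the build mm10, STAR 2.5.1b and featureCounts are named, without their roles, in the submitters' processing notes. Strand setting, annotation release and treatment of multi-mapped reads are not given in the sources used here. The authors' deposited comparison, in DESeq2 layout, gives a mean normalised signal, log2 fold changes with standard errors, a score (Wald statistic) and p-values per the file headers. It was used only where named.

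Counts were fitted over all genes with edgeR 4.0.16 in R 4.3.3 (filterByExpr, TMM, quasi-likelihood F test, Benjamini-Hochberg over 15117 genes, called at an adjusted p under 0.05), with no covariate. SE is the log2 difference over the root of F. CPM use TMM-scaled totals, and TPM use the deposited exon lengths. Libraries of a group differed beyond sampling noise (chi-square per degree of freedom 4.87 to 18.7), so none was merged. Replicates 2 and 3 were closest, at 4.87 with CRISPRa and 6.22 without sgRNA. Pairs with CRISPRa replicate 5 or no sgRNA replicate 4 were at 15 to 18.7. Alternatives were other scalings and filters, DESeq2 1.42.0, limma 3.58.1 (voom), a replicate block, leaving out each library and a threshold of 0.01. The script was tested on simulated data. Gene spans and shared 50-base words came from GENCODE M21. Named genes were all members, Scn2a, and from each list the largest called rise and fall and the most abundant gene not called, plus nearest profiles (that of Mx2 is not reported here); Gbp5, Irf9, Irf7 and the other called signalling genes beside Usp18, and genes within 100 kb of members, were chosen after values were seen. The members and lists were chosen with earlier results of these data known.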

Additional observations from a re-analysis of the deposited data

How the results depend on the processing

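The 6 members called higher numbered 6 under each of the 16 alternatives, and the direction of each tested member was the same throughout. Samd9l, 1 of the 6, passed the filter on low counts through the CRISPRa group alone. It carries no weight in that count, here or with the replicate block below. The number called lower was 0, with 0 to 1 when libraries were left out in turn (Ifitm2, without CRISPRa replicate 2). Of the 85 surrounding genes, 19 to 26 were called higher over the alternatives. None was called lower in the fit without a block, 0 to 1 when libraries were left out (Vapa, log2 -0.24, adjusted p = 0.0475, edgeR, without no sgRNA replicate 2). The log2 difference ran from 2.18 to 2.37 for Ifitm3, 2.18 to 2.34 for Bst2, 6.07 to 6.41 for Rsad2, 4.30 to 4.58 for Mx1, 3.15 to 3.40 for Mx2, 6.25 to 8.18 for Samd9l and -0.34 to -0.18 for Ifitm2. The log2 ratio differences ran from -2.70 to -2.39 (Ifitm2 to Ifitm3) and 0.95 to 1.32 (Mx1 to Mx2) with a library left out. Scn2a ran from 0.29 to 0.59 with adjusted p of 0.0542 to 0.277 (edgeR, DESeq2 or limma).

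Among the 6 libraries with counts, only replicate numbers 2 and 3 occur in both groups, and same-numbered libraries did not deviate together (correlations -0.0046 and -0.026), so the numbers were not taken as pairs. With the replicate block on those 4 libraries, 6 members were called higher and 0 lower, 23 surrounding genes were called higher and 1 lower (Hadhb, log2 -0.22, adjusted p = 0.0415, edgeR), and Scn2a was at 0.36 (adjusted p = 0.161). Without the block the same 4 libraries gave 22 higher and 0 lower. The cause of these differences was not tested. Members at fewer than about 3 counts per library could not be measured at this depth.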

Other observations

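Genes within 100 kb of a member were read from the same fit, with the window chosen after the members' values were seen. Of 65 such genes, 34 were tested, 8 were called higher and 1 lower, against 9.47% and 9.25% of all tested genes. Of those called higher, Gm20559 and Gm43197, both near Samd9l, passed the filter on low counts through the CRISPRa group alone. Their calls carry no weight in that count. None of the tested neighbours of Ifitm1, Ifitm2 or Ifitm3 on chromosome 7 was called, although Ifitm3 rose. Beside Mx1 and Mx2 on chromosome 16, Tmprss2, the serine protease that primes several viral envelope proteins, went from 0.379 to 3.79 CPM (log2 3.31, SE 0.35; edgeR, adjusted p = 1.32e-05), and Bace2 had a log2 difference of 0.40 (SE 0.06; adjusted p = 0.000584). Tmprss2 lies 3782 bases past the end of Mx2.

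Ch25h, with almost no counts, lies 75530 bases from Ifit2, an interferon-induced gene for an RNA-binding protein, which went from 13.3 to 85.3 CPM (log2 2.68, SE 0.09; edgeR, adjusted p = 3.64e-12). Lipa, a lysosomal lipase gene between them, had a log2 difference of 0.40 (SE 0.08; adjusted p = 0.00318). Near Samd9l, Gm20559 had no count without sgRNA and 5.27 CPM with CRISPRa, and it shares some 50-base words with Samd9l, whose own share of words found in other genes was 0.428%. Abhd8, near Bst2, was the neighbour called lower (log2 -0.45, SE 0.07; edgeR, adjusted p = 0.000739).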
